A study of Homo sapiens with 8 samples.

Results

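The ATP-binding cassette (ABC) transporter family was read out by RNA sequencing in 2 human breast cancer cell lines with amplified HER2. Its members were taken as the rows whose symbol is ABC, a letter from A to G and a number, which gave 46 of the 20531 genes in the tables, and 35 of them, like 14429 of all genes, had a library in which their value was 10 or higher. SKBR-3 lacks the estrogen and progesterone receptors, and BT474m1 is a derivative of the BT474 line that carries both. Each line, grown in RPMI with serum, was kept for 48 h with its vehicle DMSO, with lapatinib, which blocks the kinases EGFR and HER2, with JQ1, which keeps BET bromodomain proteins off acetylated histones, or with both drugs, each at 300 nM. The 8 groups held 1 library each, so that no difference can be set against a spread between cultures, no test was made, and the 95% intervals below cover counting error only. Both lines are tumour cells in culture without surrounding tissue, and less RNA per cell of a type cannot be told apart from fewer such cells in a bulk sample.

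Most members of the family join ATP-binding domains to membrane helices and use ATP to carry lipids, conjugated toxins, ions or peptides across a membrane. The members that export drugs are known for keeping chemotherapy out of tumour cells, while ABCA1 and ABCG1 hand cholesterol to lipoproteins and are classical target genes of the liver X receptors (LXRs), nuclear receptors that sense oxidised cholesterol. The ABCE and ABCF members lack membrane helices and act on ribosomes and translation.

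The values are estimated read counts that the authors scaled so that each library's upper quartile is 1000, and on that scale 1 read was worth 0.471 to 0.766 units. A member is called changed where log2(value + 1) moved by 1 or more, that is 2-fold, on a scale that understates the change of low genes. The depth was 21420106 to 34112371 reads on genes, and the 46 members took 0.156 to 0.217% of the summed values. The lines carried luminal transcripts, with ERBB2 at 94678 to 277872, whereas CDH1 (E-cadherin) was at 2.58 to 15.1 in SKBR-3 against 19413 to 24373 in BT474m1. The summed level of 3 leukocyte markers (PTPRC, CD3E, CD14) was 0 to 6.44. Of 3 fibroblast markers, COL1A2 and DCN were at or under 1.75 while COL1A1 reached 1253 with DMSO in BT474m1, and of 3 endothelial markers PECAM1 was at or under 0.583 while CDH5 and VWF reached 126 and 153. In BT474m1 COL1A1, CDH5 and VWF moved by -0.05, -5.22 and -2.28 on the log2 scale with lapatinib, by -1.67, -2.94 and -3.67 with JQ1 and by -1.89, -4.11 and -4.62 with both drugs. In SKBR-3 the same 3 moved by -1.79, -0.81 and 0.09, by -0.60, -2.60 and -3.03, and by -2.32, -2.86 and -0.91. KRT5, KRT14 and TP63, markers of basal cells, summed to 2.92 to 38.7, and TP63 moved by -3.29, -2.63 and -3.83 in BT474m1 with lapatinib, JQ1 and both drugs. In SKBR-3 TP63 moved by -0.87, -0.13 and -1.83, and KRT5 by 1.39, 2.63 and 0.87 from a value of 1.43 with DMSO. In SKBR-3, 1 of the 6 luminal markers (ERBB2, 1.30) was at least 2-fold higher with lapatinib (11.1% of all genes kept), 3 with JQ1 (3.75%) and 4 with both drugs (10.8%). The part of these markers in the changes below was not tested.

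Of the 35 members kept, 8 of 9 belonged to drug efflux, 2 of 5 to sterol export, 10 of 13 to other lipid transport, 5 of 5 to transporters of mitochondria and lysosomes, 3 of 4 to those of peroxisomes and cobalamin, 4 of 4 to the translation ATPases and 3 of 6 to no such group. The 11 members under a value of 10 in every library were ABCB1, ABCG4, ABCG5, ABCG8, ABCA8, ABCA13, ABCB5, ABCB11, ABCC9, ABCC13 and ABCD2. ABCB1, the P-glycoprotein and the best known of the drug exporters, ran from 0 to 3.44, which is 0 to 5 reads. In SKBR-3 it was at 0 under DMSO, 2.33 under lapatinib, 1.29 under JQ1 and 3.44 under the combination, and in BT474m1 at 0.471, 0.602, 2.42 and 0.583. These values lie within a few reads of each other, and no change of ABCB1 was detectable at this depth.

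In SKBR-3, 9 of the 35 members were at least 2-fold higher with lapatinib than with DMSO (11.1% of all genes kept were) and 2 were lower (9.44%). With JQ1, 5 were higher (3.75%) and 4 lower (11.8%), and with both drugs 8 were higher (10.8%) and 11 lower (20.8%). In BT474m1, lapatinib gave 14 higher (14%) and 2 lower (8.06%), JQ1 gave 10 higher (4.81%) and 6 lower (11.8%), and both drugs gave 11 higher (14.2%) and 3 lower (15.3%). With a pseudocount of 10 lapatinib gave 5 higher and 1 lower in SKBR-3, and JQ1 gave 5 higher and 2 lower in BT474m1. The higher members in BT474m1 include ABCA6, ABCA9 and ABCA10 in all 3 comparisons. These passed the filter only through drugged libraries of that line, ABCA6 only through that with both drugs. Their place among the higher members is thus in part set by the filter. The family's median log2 fold change was 0.58 with lapatinib in BT474m1, where that of all genes was 0.07, and 0.08 in SKBR-3, where that of all genes was 0.05. The 0.58 was 0.33 without a filter, over all 46 members. With JQ1 the medians were 0.18 in SKBR-3 and -0.01 in BT474m1 (all genes, -0.08 and -0.06), and with both drugs 0.00 and 0.04 (-0.08 and 0.00). The 0.18 was 0.01 without a filter. With the members at 0 reads put at the bound that 3 reads allow, or at a change of 0 where there was no bound, the JQ1 median in SKBR-3 was 0.09 and the lapatinib median 0.07.

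Against lapatinib alone, 2 were higher (3.22%) and 7 lower (16.2%) in SKBR-3, and 4 were higher (5.2%) and 7 lower (12.5%) in BT474m1. The 4 include ABCA6, which passed the filter only through the BT474m1 library with both drugs and was 0.77 with a pseudocount of 10. Against JQ1 alone, both drugs gave 8 higher (9.79%) and 5 lower (12.3%) in SKBR-3 and 11 higher (12.4%) and 2 lower (7.27%) in BT474m1. The 11 again include ABCA6, ABCA9 and ABCA10, and the counts in BT474m1 were 6 and 1 with a filter at 100 and 7 and 1 with a pseudocount of 10. The medians of the family were -0.09 and -0.08 against lapatinib (all genes, -0.11 and -0.02) and 0.00 and 0.42 against JQ1 (0.00 and 0.06), in SKBR-3 and BT474m1. The last, 0.42, was 0.17 with a pseudocount of 10 and 0.06 without a filter or with a filter at 100. Some splits move with the scaling in SKBR-3: with equal totals JQ1 gave 3 higher and 5 lower, and with scaling by the median of ratios both drugs gave 10 higher and 9 lower against DMSO and 4 higher and 7 lower against lapatinib. Scaling by the median of ratios shifted the median of all genes by 0.11 for both drugs against lapatinib in SKBR-3, and equal totals shifted it by -0.14 for JQ1 against DMSO.

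**Figure D1:**
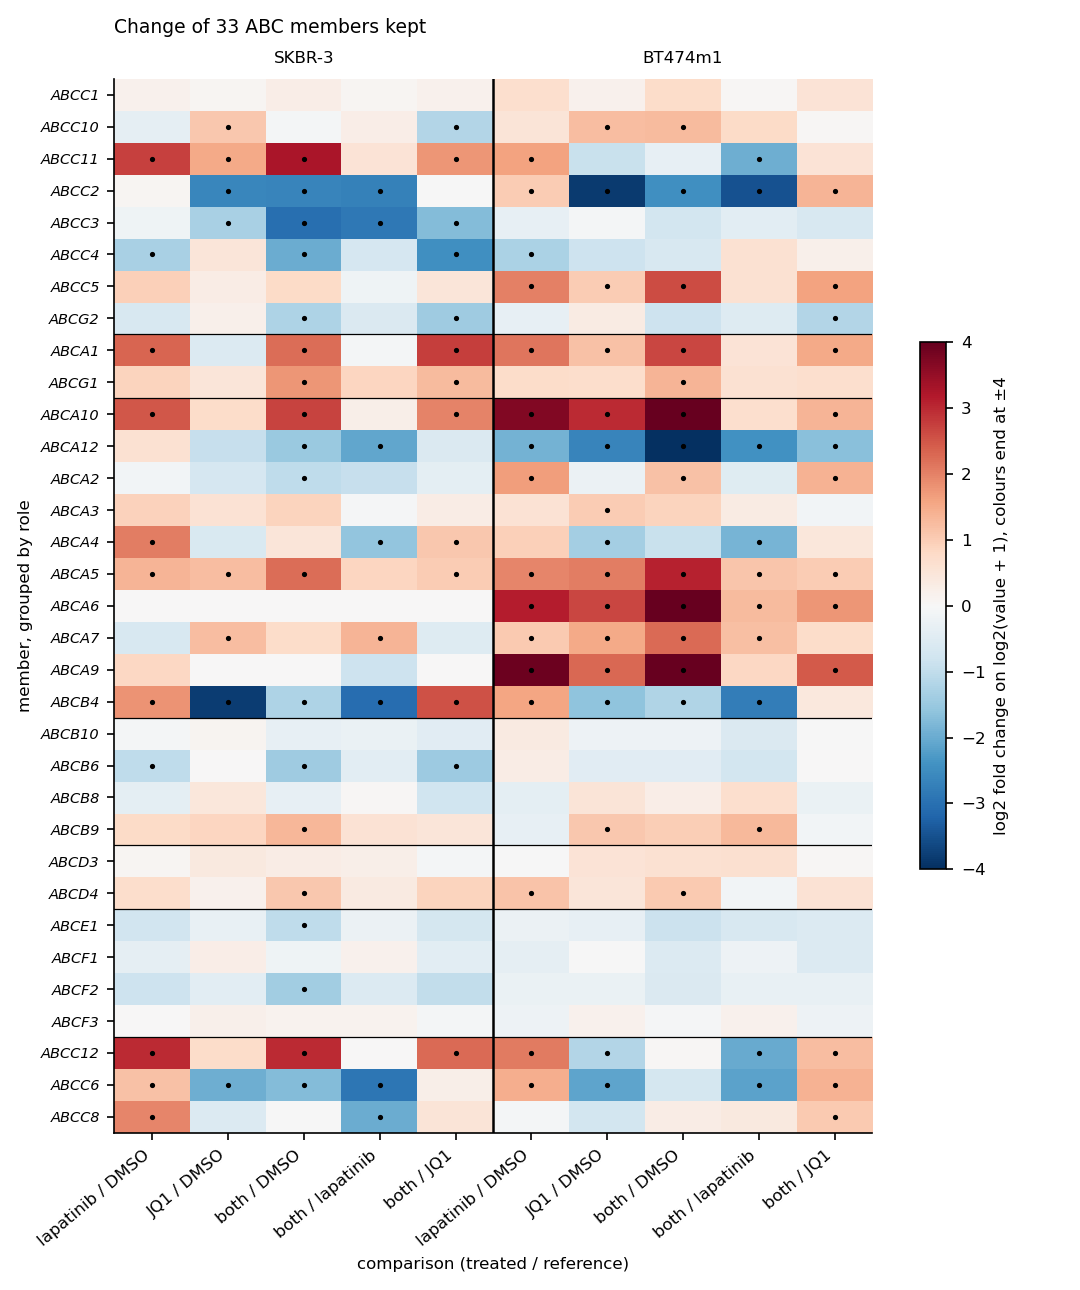
Log2 fold change, on log2(value + 1), of 33 of the members kept (lines, grouped by role with drug efflux at the top) in 5 comparisons in SKBR-3 (left) and BT474m1 (right), 1 library against 1 library. Red is higher and blue lower in the treated library, the colours end at 4 in either direction, and a dot marks a change of at least 2-fold. ABCA5 is red in all 10 columns, ABCC2 is blue wherever JQ1 was added to DMSO or to lapatinib, and the translation ATPases are pale.

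Lapatinib raised 7 members at least 2-fold in both lines, ABCA1, ABCA5, ABCA10, ABCB4, ABCC6, ABCC11 and ABCC12, or 77.8% of the 9 that SKBR-3 gave and 50% of BT474m1's 14 (over all genes the matching shares were 39.7% and 31.3%, and 4.39% of all genes kept were higher in both lines). ABCC4 was the 1 member lower in both lines (4.15%). In SKBR-3 the changes of ABCA10 and ABCC12 rest on 0 reads with DMSO and 6 and 9 with lapatinib. JQ1 raised ABCA5, ABCA7 and ABCC10 in both lines (1.16%) and lowered ABCB4, ABCC2 and ABCC6 in both (5.31%). With both drugs ABCA1, ABCA5, ABCA10, ABCD4 and ABCG1 were higher in both lines (4.46%) and ABCA12, ABCB4 and ABCC2 lower (8.93%), while ABCA2 went opposite ways (1.8%). No member went opposite ways by 2-fold with lapatinib, with JQ1, or with both drugs against lapatinib or JQ1 alone, as 1.03%, 0.527%, 0.638% and 1.07% of all genes did. Against lapatinib alone, both drugs left ABCA12, ABCA4, ABCB4, ABCC2 and ABCC6 lower in both lines (6.31%) and ABCA7 higher (1.14%), and against JQ1 alone ABCA1, ABCA5, ABCA10 and ABCC12 higher (3.6%) and ABCG2 lower (3.95%). With a pseudocount of 10 the change was under 2-fold in at least 1 line for ABCA10, ABCB4, ABCC4, ABCC6 and ABCC12 with lapatinib, for ABCB4 and ABCC6 with JQ1, for ABCA10 and ABCB4 with both drugs, and for ABCA10, ABCC12 and ABCG2 with both against JQ1 alone. Scaling by the median of ratios took ABCA5 to 0.95 for both drugs against JQ1 in BT474m1. The comparisons of a line share their DMSO or drug libraries and are not independent of each other. Under 2-fold in all 10 drug comparisons were 7 of the 35 members (20%), with ABCC1, ABCB8, ABCB10, ABCD3, ABCF1 and ABCF3 among them, and 42.4% of all genes kept.

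Promoter sequences were at hand in RefSeq (GRCh38.p14) for 35 of the 46 members, and the 250 bases before each start were searched on both strands. The motifs were the LXR element of the DR4 type, a pair of hexamers 4 bases apart, the forkhead motifs GTAAACA and GTCAACA, and the E-box CACGTG. No match overlapped another in any member. The 3 printed belong to the members that changed at least 2-fold against DMSO in both lines and hold a motif before their first start, in capitals below, and each is written 5′ to 3′ on the strand of its gene. ABCA1 lies on chr9:104928156-104928405 (minus strand), ABCC2 on chr10:99782390-99782639 (plus) and ABCC10 on chr6:43427291-43427540 (plus).
ABCA1: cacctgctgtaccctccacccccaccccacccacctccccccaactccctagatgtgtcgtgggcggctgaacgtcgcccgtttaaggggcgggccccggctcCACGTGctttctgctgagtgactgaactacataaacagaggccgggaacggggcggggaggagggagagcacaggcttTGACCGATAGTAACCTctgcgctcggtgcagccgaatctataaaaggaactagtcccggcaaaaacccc
ABCC2: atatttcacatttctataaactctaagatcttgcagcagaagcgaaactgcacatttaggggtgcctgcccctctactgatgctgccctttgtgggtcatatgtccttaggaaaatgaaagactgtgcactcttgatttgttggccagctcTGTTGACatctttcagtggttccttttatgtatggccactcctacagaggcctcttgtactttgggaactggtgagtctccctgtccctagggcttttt
ABCC10: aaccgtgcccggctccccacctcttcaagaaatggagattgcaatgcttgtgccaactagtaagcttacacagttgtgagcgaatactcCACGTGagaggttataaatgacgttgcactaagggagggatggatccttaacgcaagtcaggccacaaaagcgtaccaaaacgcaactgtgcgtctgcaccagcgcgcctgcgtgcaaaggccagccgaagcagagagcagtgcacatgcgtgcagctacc

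The second stretch of capitals in ABCA1 is a DR4 element read on the opposite strand, 69 to 54 bases before the start, and the first is an E-box. A gene with several starts was counted once, if any of them had the motif. A DR4 element was present in 0.242% of the 27305 genes searched and, of the 27 members kept that had a promoter sequence, in ABCA1 alone. The pattern did not ask for equal hexamers. It accepted a cytosine as first base of the second hexamer, which the ABCA1 site needs, while the first hexamer there begins with adenine. ABCA1 was a known LXR target beforehand, so its lone match depends on the pattern chosen and is no independent finding. The capitals in ABCC2 are GTCAACA on the opposite strand, 99 to 93 bases before the start, a motif in 2.39% of these genes and in 1 of the 27 members. CACGTG, capitals in ABCC10, was in 8 of the 27 members (ABCA1, ABCA9, ABCA12, ABCB6, ABCB9, ABCC10, ABCF1 and ABCG2) and in 7.73% of the genes searched. GTAAACA was in ABCA6, ABCE1 and ABCF1 and in 3.66% of the genes. The genes searched passed no filter on values, unlike the 27 members, so these shares are of unlike sets. ABCC10 and ABCA12 each have 2 starts in that table, and the match in ABCA12 lies before the inner one, which is not printed. A match is only a match of letters, and binding was not measured here.

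Among the drug efflux members, the lines differed most in ABCC2 and ABCC3 before any drug, lapatinib raised ABCC11 and JQ1 lowered ABCC2 in both lines, and lapatinib raised ABCC5 4.04-fold in BT474m1. ABCC2 (MRP2) exports conjugated bilirubin and drugs across the apical membrane, and stood in SKBR-3 at 52.3 under DMSO, 55.1 under lapatinib, 7.73 under JQ1 and 7.57 under the combination. In BT474m1 the same 4 values were 1227, 2494, 85.5 and 223. In each line the 2 libraries with JQ1 lay below the 2 without it. With JQ1 the log2 fold change was -2.61 (95% interval -3.77 to -1.87) in SKBR-3 and -3.83 (-4.07 to -3.62) in BT474m1, and for both drugs against lapatinib it was -2.71 (-3.93 to -1.94) and -3.48 (-3.64 to -3.33). Lapatinib alone gave 1.02 (0.95 to 1.09) in BT474m1, a change under 2-fold with scaling by the median of ratios (0.97), and 0.08 (-0.41 to 0.57) in SKBR-3. The promoter of ABCC2 is the one with GTCAACA above.

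**Figure D2:**
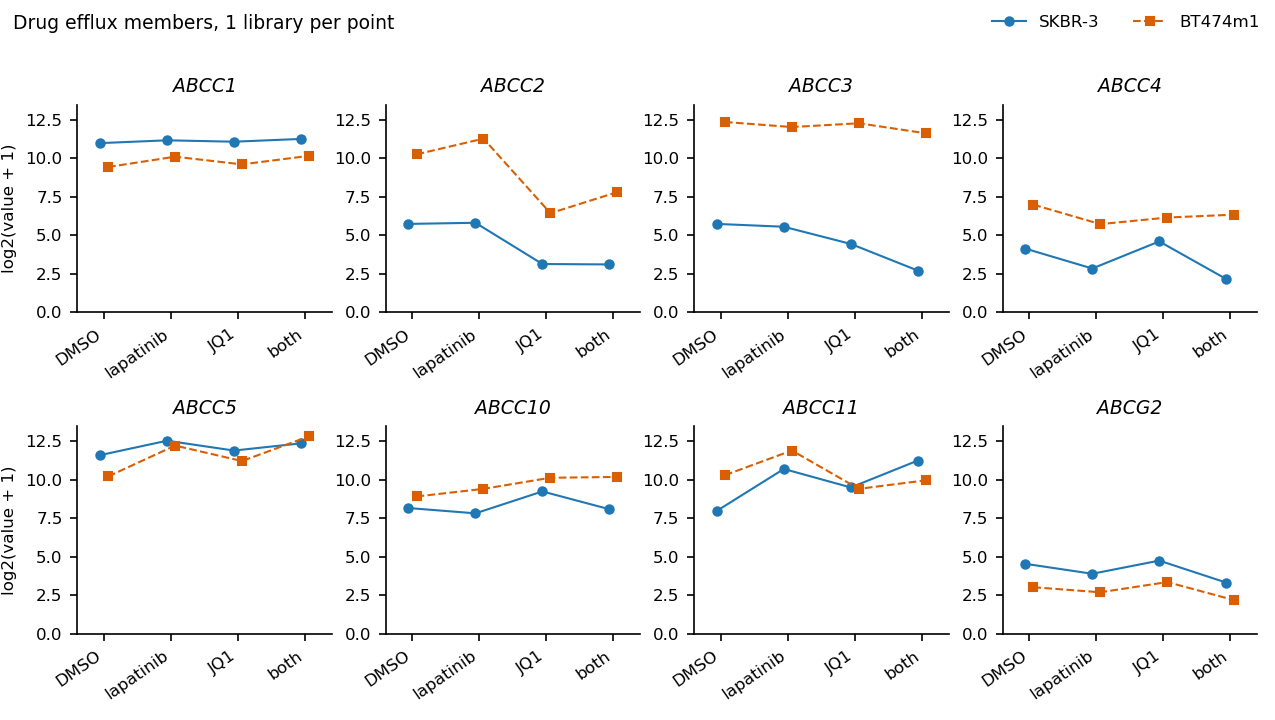
Values of the 8 drug efflux members on the log2(value + 1) scale (vertical axis) by treatment (horizontal axis), with circles and solid lines for SKBR-3 and squares and dashed lines for BT474m1, 1 library per point, and lines that only join the points of a cell line. ABCC2 falls from 1227 with DMSO to 85.5 with JQ1 in BT474m1, ABCC11 rises from 252 to 1672 with lapatinib in SKBR-3, and ABCC3 is apart between the lines in every treatment.

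ABCC11 (MRP8), which exports lipophilic anions and is active in apocrine glands, was at 252 under DMSO, 1672 under lapatinib, 725 under JQ1 and 2442 under the combination in SKBR-3. In BT474m1 it was at 1263, 3844, 681 and 1001. Lapatinib raised it by 2.73 on the log2 scale (2.57 to 2.90) in SKBR-3, or 6.64-fold, and by 1.60 (1.54 to 1.67) in BT474m1. With JQ1 present the lines parted, since both drugs gave 3.27 (3.12 to 3.44) against DMSO in SKBR-3, the highest of the drug efflux members, and -0.33 (-0.42 to -0.25) in BT474m1. JQ1 alone gave 1.52 (1.35 to 1.70) and -0.89 (-0.99 to -0.80). The difference between the lines was not tested, since each group holds 1 library.

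ABCC5 (MRP5), an exporter of cyclic nucleotides and nucleotide analogues, was at 3118, 5979, 3834 and 5301 in SKBR-3, in the same order of treatments, and at 1190.0, 4804, 2389 and 7273 in BT474m1. Every drugged library lay above the DMSO library of its line. In BT474m1 the log2 fold changes were 2.01 (1.95 to 2.08) with lapatinib and 2.61 (2.55 to 2.67) with both drugs, or 6.11-fold over DMSO. In SKBR-3 they were 0.94 (0.89 to 0.99) with lapatinib, 0.30 (0.24 to 0.35) with JQ1 and 0.77 (0.71 to 0.82) with both, all under 2-fold. JQ1 alone gave 2.01-fold in BT474m1, and under 2-fold (0.98 on the log2 scale) with scaling to equal totals.

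ABCC10 (MRP7), which carries taxanes among other drugs, was at 286, 225, 606 and 271 in SKBR-3 and at 482, 681, 1124 and 1166 in BT474m1, in the order DMSO, lapatinib, JQ1 and both drugs. JQ1 gave 1.08 (0.91 to 1.25) in SKBR-3 and 1.22, or 2.33-fold, in BT474m1. In SKBR-3 the library with both drugs lay back near DMSO, at -0.08 (-0.28 to 0.13), whereas in BT474m1 it was at 1.27 (1.16 to 1.38). The JQ1 change in SKBR-3 was 0.93 with scaling to equal totals, under 2-fold.

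ABCC1 (MRP1), the exporter of glutathione conjugates, was the 1 drug efflux member under 2-fold in all 10 drug comparisons. It was at 2037, 2313, 2172 and 2461 in SKBR-3 and at 693, 1105, 780.2 and 1147 in BT474m1, and its drug comparisons ran up to a log2 fold change of 0.73 (0.63 to 0.83), for both drugs against DMSO in BT474m1. ABCC3 (MRP3), a basolateral exporter of conjugates, was at 52.3, 45.9, 20.6 and 5.5 in SKBR-3 and at 5291, 4208, 4989.9 and 3174 in BT474m1. Both drugs gave -3.03 (-4.51 to -2.19) in SKBR-3, from 73 reads to 8, and -0.74 (-0.78 to -0.69) in BT474m1.

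ABCC4 (MRP4), an exporter of cyclic nucleotides and prostaglandins, was at 16.5, 6.13, 23.2 and 3.44 in SKBR-3 and at 126, 51.8, 70 and 79.9 in BT474m1. Lapatinib gave -1.29 (-2.80 to -0.21) in SKBR-3, from 23 reads to 8, and -1.27 (-1.65 to -0.93) in BT474m1, and the first was -0.71 with a pseudocount of 10. ABCG2, the breast cancer resistance protein, was low throughout, at 22.2, 13.8, 25.8 and 8.94 in SKBR-3 and at 7.07, 5.42, 9.18 and 3.5 in BT474m1, which is 6 to 40 reads. With both drugs it was lower than with JQ1 in both lines, at -1.43 (-2.55 to -0.59) and -1.18 (19 reads to 6), and with a pseudocount of 10 these changes were -0.92 and -0.51.

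The sterol exporters ABCA1 and ABCG1 were both at least 2-fold higher with both drugs than with DMSO in both lines. ABCA1, which loads cholesterol and phospholipid onto apolipoprotein A-I, was at 19.3 under DMSO, 100.3 under lapatinib, 12.9 under JQ1 and 94.1 under the combination in SKBR-3. In BT474m1 it was at 212, 931, 482 and 1369. The libraries with lapatinib lay above those without it in each line. Lapatinib gave 2.32 (1.77 to 3.03) in SKBR-3 and 2.13 (1.98 to 2.29) in BT474m1, or 5.19-fold and 4.39-fold. JQ1 gave -0.55 (-1.50 to 0.30) in SKBR-3, from 27 reads to 20, and 1.18 (1.02 to 1.35) in BT474m1, and both drugs gave 2.23 (1.68 to 2.94) and 2.68 (2.54 to 2.84). In 4 of 8 libraries the value of ABCA1 was not a whole number of reads, as happens where an estimate divides reads between genes.

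ABCG1, which passes cholesterol to high-density lipoprotein, was at 418, 783, 579.9 and 1411 in SKBR-3 and at 717, 1202, 1155 and 1848 in BT474m1. In both lines it was lowest with DMSO and highest with both drugs. Both drugs gave 1.75 (1.62 to 1.89) and 1.36 (1.28 to 1.45), and each drug alone gave 0.47 to 0.90, under 2-fold. ABCG4, ABCG5 and ABCG8 were at or under 6.89.

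**Figure D3:**
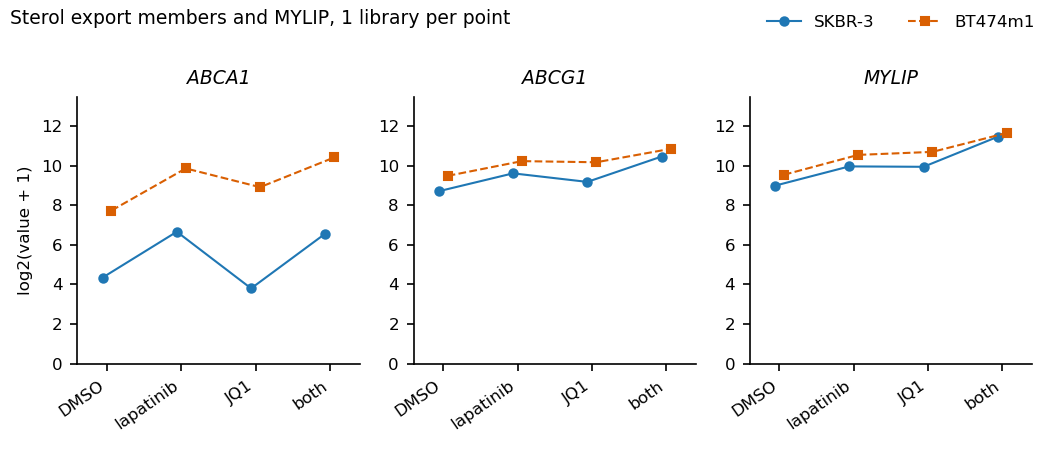
Values of ABCA1, ABCG1 and MYLIP on the log2(value + 1) scale (vertical axis) by treatment (horizontal axis), with circles and solid lines for SKBR-3 and squares and dashed lines for BT474m1, 1 library per point, and lines that only join the points of a cell line. ABCG1 and MYLIP are highest with both drugs in each line, and ABCA1 follows lapatinib, at 100.3 and 94.1 with it against 19.3 and 12.9 without it in SKBR-3.

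Of 12 genes for the sensing and handling of sterols around LXR, all were kept. In SKBR-3 and BT474m1, 1 and 1 were at least 2-fold higher with lapatinib (11.1% and 14% of all genes), 0 and 3 with JQ1 (3.75% and 4.81%) and 2 and 3 with both drugs (10.8% and 14.2%), with none lower. Their medians with lapatinib were 0.72 and 0.49, beside 0.05 and 0.07 over all genes. With both drugs the medians were 0.65 and 0.59 (all genes, -0.08 and 0.00), and SCARB1 was at -0.73 in each line. MYLIP, an LXR target that marks the LDL receptor for breakdown, was the 1 gene of this list at least 2-fold higher in both lines with both drugs (4.46% of all genes). It was at 508, 999, 985 and 2828 in SKBR-3 and at 745, 1496, 1663 and 3227 in BT474m1, which is a log2 fold change of 2.48 and 2.11 with both drugs.

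Of the 10 other lipid transporters kept, 4 in SKBR-3 and 7 in BT474m1 were at least 2-fold higher with lapatinib (11.1% and 14% of all genes), and 0 and 1 were lower (9.44% and 8.06%). With JQ1, 2 and 6 were higher (3.75% and 4.81%) and 1 and 3 lower (11.8% in each line). ABCA6, ABCA9 and ABCA10 are 3 of the 7 and of the 6 in BT474m1, and with a pseudocount of 10 these members and, among the lower, ABCA4 and ABCB4 were under 2-fold with JQ1 there. ABCA5, a lysosomal lipid transporter, was at 475 under DMSO, 1225 under lapatinib, 1118 under JQ1 and 2247 under the combination in SKBR-3. In BT474m1 it was at 235, 916, 976 and 1974. Either drug alone raised it in each line and both together raised it further. The log2 fold changes against DMSO were 1.37 with lapatinib (2.58-fold), 1.23 (1.11 to 1.37) with JQ1 and 2.24 (2.12 to 2.37) for the pair of drugs in SKBR-3, and in that order 1.96 (1.82 to 2.11), 2.05 (1.91 to 2.20) and 3.07 (2.94 to 3.21) in BT474m1.

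ABCA5 is the last of 5 members that follow each other on chromosome 17, after ABCA8, ABCA9, ABCA6 and ABCA10. The middle 3, whose values were looked at after ABCA5 was seen to change, rose in BT474m1 from near 0. ABCA10 was at 0.471 under DMSO, 18.1 under lapatinib, 10.6 under JQ1 and 29.2 under the combination there, ABCA9 at 0.471, 21.1, 6.28 and 38.5, and ABCA6 at 0, 7.83, 5.31 and 20.4. In SKBR-3 ABCA6 had 0 reads in all 4 libraries, which allows up to 1.93 to 2.30 units, ABCA9 had at most 1 read, and ABCA10 had 0, 6, 1 and 8. With both drugs in BT474m1 ABCA6 was at least 14.4-fold higher than with DMSO, against a floor of 3 reads per library, ABCA9 went from 1 read to 66 (ratio 81.6, log2 interval 3.82 to 11.68) and ABCA10 from 1 read to 50 (61.8, 3.41 to 11.28). ABCA8 did not pass 1.2. ABCA5 and ABCA10 share 318 bases of exon in the GENCODE annotation, 3.85% of the ABCA5 transcript, while their values were whole numbers of reads in 8 of 8 libraries.

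ABCA7, which moves phospholipids and takes part in phagocytosis, was at 168, 107, 399 and 279 with DMSO, lapatinib, JQ1 and both drugs in SKBR-3, and at 299, 617, 864 and 1433 in BT474m1. JQ1 raised it by 1.24 (1.03 to 1.47) and 1.53 (1.40 to 1.66), and both drugs against lapatinib gave 1.37 (1.10 to 1.67) and 1.21 (1.11 to 1.32). ABCA12, the lipid carrier of skin keratinocytes, was at 1422, 2149, 751 and 503 in SKBR-3 and at 239.5, 63.9, 37.2 and 11.1 in BT474m1. It was lower with both drugs in each line, at -1.50 (-1.62 to -1.38) and -4.32 (-5.18 to -3.78), while lapatinib alone gave 0.60 (0.51 to 0.68) in SKBR-3 and -1.89 (-2.22 to -1.60) in BT474m1.

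**Figure D4:**
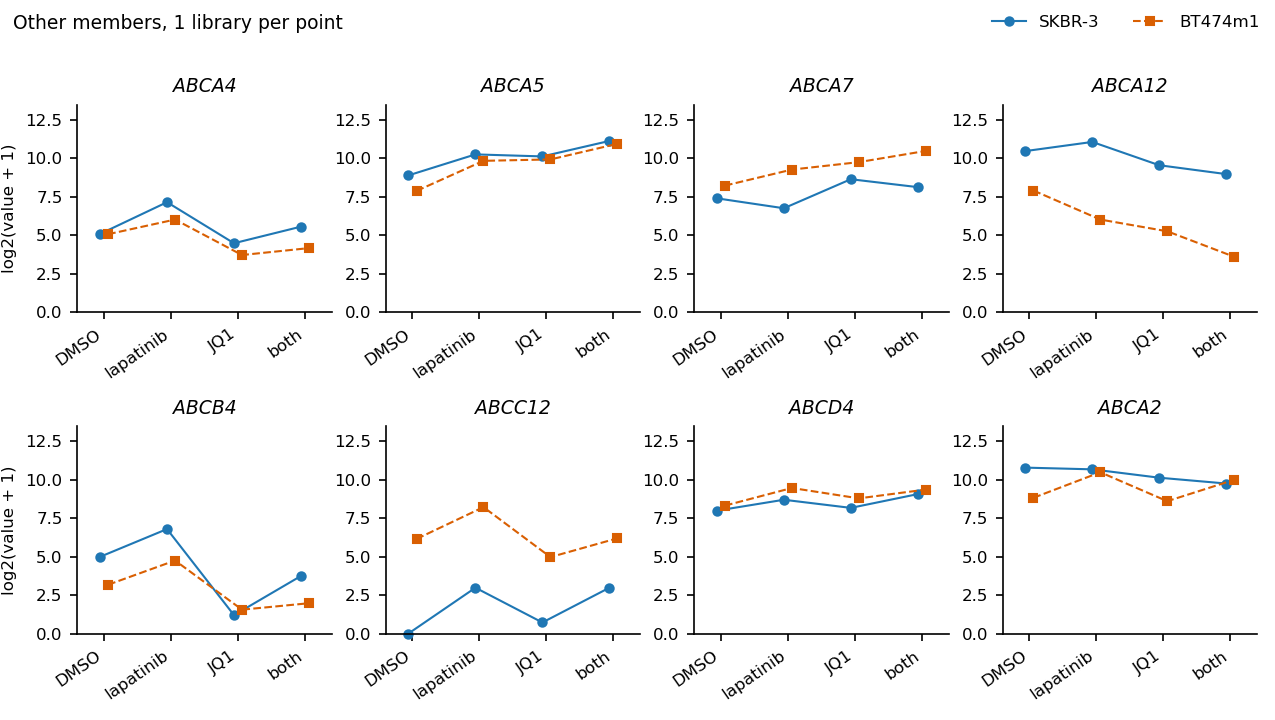
Values of 8 further members on the log2(value + 1) scale (vertical axis) by treatment (horizontal axis), with circles and solid lines for SKBR-3 and squares and dashed lines for BT474m1, 1 library per point, and lines that only join the points of a cell line. ABCA5 climbs to 2247 and 1974 with both drugs, ABCA12 falls to 11.1 in BT474m1, ABCB4 is highest with lapatinib alone in both lines, and ABCA2 goes opposite ways with both drugs.

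ABCB4, which flips phosphatidylcholine into bile, was at 30.8, 110.2, 1.29 and 12.4 in SKBR-3 and at 8.02, 25.9, 1.93 and 2.92 in BT474m1. Lapatinib raised it by 1.81 (1.34 to 2.37) and 1.58 (0.85 to 2.60), the latter 0.99 with a pseudocount of 10, and both drugs against lapatinib gave -3.06 (-3.95 to -2.44) and -2.78 (-4.85 to -1.82). JQ1 took it from 43 reads to 2 in SKBR-3 (ratio 23.9, log2 interval -7.67 to -2.64). With both drugs in BT474m1 it went from 17 reads to 5 (-1.20, -3.25 to 0.04), an interval that includes 0. ABCB1, its neighbour on chromosome 7, is the member at 0 to 5 reads named above.

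ABCA4, the retinoid lipid transporter of the retina, was at 32.9, 141, 21.3 and 46.1 in SKBR-3 and at 32.5, 63.9, 12.1 and 16.9 in BT474m1. It was highest with lapatinib alone in both lines, and both drugs against lapatinib gave -1.59 (-2.04 to -1.20) and -1.86 (-2.56 to -1.31). ABCA2, a lipid transporter of endosomes and lysosomes chosen here for its opposite changes, was at 1775, 1643, 1126 and 866 in SKBR-3 and at 454, 1439.8, 389.9 and 1024 in BT474m1. Both drugs gave -1.03 (-1.13 to -0.94) in SKBR-3, or -0.89 with scaling by the median of ratios, and 1.17 (1.06 to 1.29) in BT474m1. The remaining member, ABCA3, ran from 1018 to 2574, and its JQ1 change in BT474m1, 2-fold, was 0.98 on the log2 scale with scaling to equal totals.

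The transporters of mitochondria, lysosomes and peroxisomes have short subunits that pair up to form a carrier. Of the 5 in mitochondria and lysosomes, lapatinib left 0 higher (11.1% of all genes) and 1 lower (9.44%) in SKBR-3 and none of either kind in BT474m1 (14% and 8.06%), and both drugs left 1 higher and 1 lower in SKBR-3 (10.8% and 20.8%). Their log2 fold changes over the drug comparisons ran from -1.44 to 1.34. The lowest was ABCB6, a porphyrin transporter, at 1233, 609, 1244 and 459 in SKBR-3, and the highest ABCB9, a lysosomal peptide transporter, at 342, 575, 626 and 868 there. Both have uncertain values, since neither was a whole number of reads in any of 8 libraries, and 94.1% of the ABCB6 transcript is shared with another gene on its strand. Of 8 genes for heme and iron-sulfur cluster synthesis, PPOX, which makes protoporphyrin, was the 1 at least 2-fold higher with lapatinib in both lines (4.39% of all genes), by 1.21 and 1.14, and none was lower with lapatinib.

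Of the 3 peroxisomal and cobalamin members kept, ABCD4, needed for cobalamin to leave the lysosome, was at 254, 416, 288 and 537 in SKBR-3 and at 319, 708, 443 and 659 in BT474m1. Both drugs raised it by 1.08 (0.90 to 1.27) and 1.05 (0.91 to 1.19), and the SKBR-3 change was 0.99 with scaling to equal totals. Of 6 genes for peroxisome import and beta-oxidation, 1 was at least 2-fold higher with lapatinib in SKBR-3 (11.1% of all genes).

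The 4 translation ATPases had median log2 fold changes of -0.59 to -0.04 in the 10 drug comparisons, beside -0.11 to 0.07 over all genes. The medians for JQ1 against DMSO and for both drugs against lapatinib in SKBR-3, -0.04 and -0.05, lay above those of all genes (-0.08 and -0.11) and turned positive with scaling by the median of ratios. With both drugs against DMSO in SKBR-3, 2 of the 4 were at least 2-fold lower (20.8% of all genes), and none changed 2-fold in the other drug comparisons. ABCF2 had the lowest change, from 1744 with DMSO to 668 with both drugs in SKBR-3 (-1.38, -1.49 to -1.28), with 42.3% of its transcript shared with a readthrough gene, ABCF2-H2BK1. ABCE1, which splits ribosomes after termination, went from 3152 to 1569.7 there (-1.01, -1.08 to -0.93), or -0.86 with scaling by the median of ratios. Of 7 genes for termination, ribosome rescue and the control of initiation, none changed 2-fold in any of the 10 drug comparisons, as 42.4% of all genes kept did not. They were ETF1, GSPT1, PELO, HBS1L and, for initiation, GCN1, EIF2AK4 and EIF2S1.

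Among the 3 remaining members kept, lapatinib gave 3 higher in SKBR-3 (11.1% of all genes) and 2 in BT474m1 (14%), and JQ1 gave 1 and 2 lower (11.8% in each line). With a pseudocount of 10 the lapatinib changes in SKBR-3 were 0.76 for ABCC12, 0.92 for ABCC6 and 0.69 for ABCC8, that of ABCC6 in BT474m1 was 0.78, and the JQ1 changes in BT474m1 were -0.99 for ABCC12 and -0.55 for ABCC6, all under 2-fold. ABCC12, which lies beside ABCC11 on chromosome 16 and whose role is little known, was at 0 under DMSO, 6.89 under lapatinib, 0.644 under JQ1 and 6.88 under the combination in SKBR-3. In BT474m1 it was at 70.2, 298, 30.4 and 72.3. Lapatinib raised it by 2.07 (1.82 to 2.36) in BT474m1, and in SKBR-3 it was at least 3.21-fold higher than the floor of 3 reads allows for DMSO. Both drugs against lapatinib gave -2.03 (-2.34 to -1.75) in BT474m1, the direction that ABCC11 took there (-1.94, -2.02 to -1.86).

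ABCC6, whose loss causes pseudoxanthoma elasticum, was at 23, 52.4, 5.15 and 6.19 in SKBR-3 and at 5.37, 16.3, 0.483 and 2.92 in BT474m1. It was highest with lapatinib alone in both lines, but its values are uncertain, since its pseudogenes ABCC6P1 and ABCC6P2 reached 2.07 and 10.2 and can share its reads. ABCC8, the sulfonylurea receptor, was at 1.43, 8.42, 0.644 and 1.38 in SKBR-3, which is 1 to 11 reads, and at 30.6, 28.9, 17.9 and 37.9 in BT474m1. KCNJ11, the potassium channel that ABCC8 regulates in the pancreas, was at least 2-fold lower with JQ1 in both lines, at -1.16 and -1.74 (5.31% of all genes kept). With lapatinib it moved by 1.10 in SKBR-3 and 0.18 in BT474m1. KCNJ8, the other channel gene looked at, was not kept. ABCC6 and ABCC8 were named after their values were seen, as were ABCA2, ABCA3, ABCA6, ABCA9, ABCA10, ABCE1 and, below, NR1I2, TAP1 and TAP2.

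Before any drug, BT474m1 exceeded SKBR-3 by 2-fold or more in 7 of the 35 members (26.8% of all genes kept) and fell short of it in 11 (15.6%), with a median of -0.35 against 0.21 over all genes. The median was -0.01 without a filter, over all 46 members. The 7 were ABCC2, ABCC3, ABCC4, ABCC11, ABCA1, ABCC8 and ABCC12, of which 4 are drug efflux members. ABCC8 and ABCC12 passed the filter only through BT474m1 libraries, so their place among the 7 is in part set by the filter. ABCC3 was 101-fold higher (6.63, 6.33 to 7.01), ABCC2 23.5-fold (4.53, 4.22 to 4.91), ABCA1 11-fold (3.39, 2.90 to 4.07) and ABCC4 7.67-fold (2.87, 2.32 to 3.62). ABCC12, at 0 reads in SKBR-3, was at least 32.7-fold higher, and ABCC8 went from 2 reads to 65 (ratio 21.4, log2 interval 2.51 to 7.50).

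Of the members lower in BT474m1, ABCA12 was 5.94-fold lower (-2.56, -2.71 to -2.43) and ABCA2 3.91-fold (-1.97, -2.08 to -1.86), while ABCC1, ABCC5 and ABCG2 were 2.94-fold, 2.62-fold and 3.14-fold lower. ABCG2 passed the filter only through SKBR-3 libraries, and its change was -0.91 with a pseudocount of 10, and that of ABCA5 moved from -1.01 to -0.99. Scaling by the median of ratios shifted the median of all genes by -0.15. Estrogen receptor (ESR1) was at 1.93 to 16.8 in SKBR-3 and at 189.9 to 1827 in BT474m1, and its part in these differences was not tested.

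Divided by the length of the canonical transcript, the levels with DMSO can be compared between members. In SKBR-3 the highest were the ribosome-associated ABCF1 at 891 per kb, the peroxisomal ABCD3 at 841, ABCE1 at 811 and ABCC5 at 539. In BT474m1 ABCC3 led at 929 per kb, followed by ABCF1 at 699, ABCE1 at 593 and ABCD3 at 426. ABCC3 stood at 9.18 per kb in SKBR-3, ABCC2 at 9.0 there and at 211 in BT474m1, and ABCA1 at 1.86 and 20.4. With 1 library per line no spread between cultures is known, and the order of close neighbours such as ABCD3 and ABCE1 in SKBR-3 cannot be settled.

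**Figure D5:**
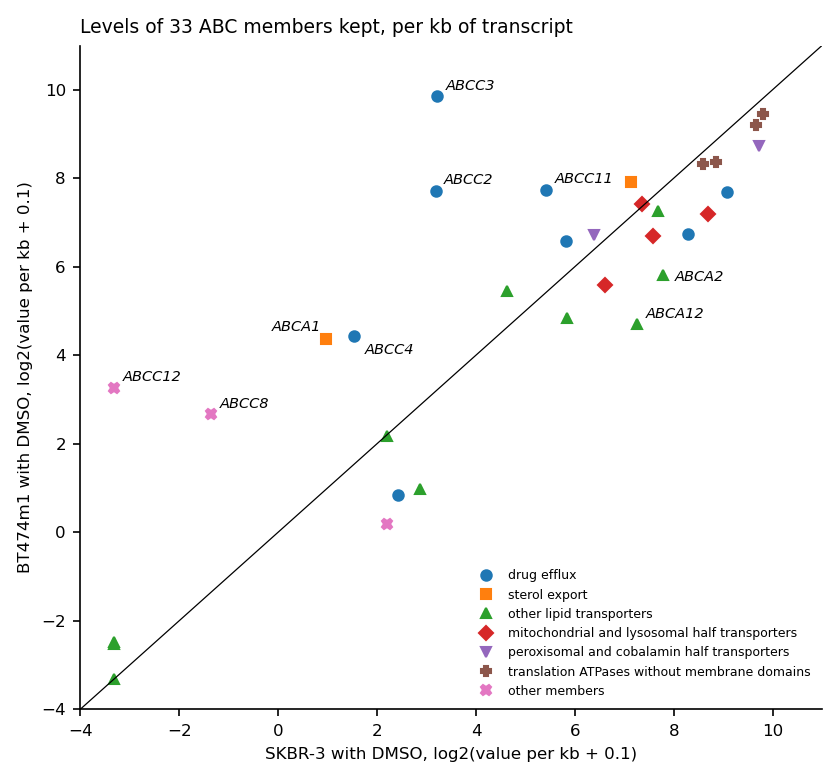
Level with DMSO of 33 of the members kept, as log2(value per kb of canonical transcript + 0.1), in SKBR-3 (horizontal axis) and BT474m1 (vertical axis), 1 library per line, with colours for the roles and a diagonal where both lines are equal. ABCC3 and ABCC2 lie far above the diagonal, at 929 and 211 per kb in BT474m1 against 9.18 and 9.0 in SKBR-3, and ABCA12 and ABCA2 lie below it.

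Of 14 genes for the xenobiotic response and glutathione, in whose pathway the drug efflux members act, 12 were kept. NR1I2, the receptor PXR that induces drug exporters in liver, was listed at 0 in all 8 libraries. JQ1 gave 2 higher (3.75% of all genes) and 2 lower (11.8%) in SKBR-3 and 0 (4.81%) and 1 (11.8%) in BT474m1. Both drugs gave 1 (10.8%) and 3 (20.8%) in SKBR-3 and 2 (14.2%) and 1 (15.3%) in BT474m1. MGST2, a membrane glutathione transferase, was lower with JQ1 in both lines (5.31% of all genes), from 218 to 84.4 and from 213 to 72.5. The 2 peptide transporters of the family with other symbols, TAP1 and TAP2, which are no members by the rule, were under 2-fold in all drug comparisons except TAP2 with JQ1 in BT474m1 (-1.23).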

How the data were processed

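Poly(A) RNA of 8 libraries, 1 for each of 4 treatments in 2 cell lines, was sequenced by the authors. The deposited tables hold 1 value per gene, a normalised signal that the authors made from RSEM counts scaled to an upper quartile of 1000. Per the labels the build was hg19, with Picard 1.88, SAMtools 1.2, RSEM, DESeq, R 3.2.2 and DESeq2 1.12.3, whereas the publication names a later build and other tools. The exposure of 48 h is that of the labels. The kit is given in more than 1 way, so that the strand setting is uncertain and antisense overlaps (ABCC10 with DLK2, ABCE1 with OTUD4, ABCA9 with ABCA9-AS1) cannot be told apart.

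The value of 1 read was recovered from the steps between low values. Of the values, 83.1 to 84.7% were whole reads (tolerance 0.02 reads), too few for a count test. Where single members are said to be whole numbers of reads or not, the tolerance was wider. Rows without a gene symbol (29 of them, at most 0.0406% of the values) were left out. A gene was kept if any library held it at 10 or above (14429 kept, 6102 removed), fold changes were taken on log2(value + 1), and exact Clopper-Pearson 95% intervals were computed from the recovered reads, which are not counts of independent molecules. The floor of a library was 3 reads, or 1.41 to 2.30 units. The steps were tested on simulated data. Drug efflux and sterol export members were named, and other members whose 2-fold change had 1 direction across the lines and that reached 100 in a library of that comparison, or that are the highest or lowest of their list. Single values of 2 members are not reported here, though counts and medians include them. The members and gene lists were chosen with earlier results of these data known. As alternatives the pseudocount was set to 10, libraries were scaled to equal totals or by the median of ratios, and the filter was dropped or raised to 100. RefSeq gene order and promoters are of GRCh38.p14, and transcript lengths of GENCODE 44. The software was Python 3.11.15 with scipy 1.17.1, pandas 2.3.3, matplotlib 3.10.9 and numpy 2.4.6.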

Additional observations from a re-analysis of the deposited data

Results flagged for a closer look

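The values below were singled out because 1 line changed at least 2-fold and the other moved the opposite way, with counting intervals that exclude 0 in both. How often this held among all genes was not counted, other members moved in opposite directions by less than 2-fold, and with 1 library per group the difference between the lines was not tested. The log2 fold changes of ABCA2 in SKBR-3 and BT474m1 were -0.11 and 1.66 with lapatinib, -1.03 and 1.17 with both drugs, and -0.38 and 1.39 for both drugs against JQ1. Those of ABCC11 were 1.52 and -0.89 with JQ1, 3.27 and -0.33 with both drugs, and 0.55 and -1.94 for both drugs against lapatinib. With lapatinib alone ABCA12 gave 0.60 and -1.89, ABCA7 -0.65 and 1.04 (0.99 with scaling by the median of ratios, under 2-fold), and ABCB6 -1.02 and 0.29.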

How the results depend on the processing

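Counts of members past 2-fold depended mostly on low members. With a pseudocount of 10, lapatinib in SKBR-3 gave 5 higher and 1 lower (9 and 2 with a pseudocount of 1), both drugs against JQ1 in SKBR-3 gave 4 and 3 (8 and 5), JQ1 in BT474m1 gave 5 and 2 (10 and 6) and both drugs against JQ1 there 7 and 1 (11 and 2). Scaling by the median of ratios gave 4 higher for both drugs against lapatinib in SKBR-3 in place of 2, and equal totals gave 3 higher with JQ1 in SKBR-3 in place of 5. Without a filter, over 46 members, both drugs in BT474m1 gave 5 lower against DMSO in place of 3 and 4 lower against JQ1 in place of 2, and with a filter at 100, over 29 members, 6 higher and 1 lower against JQ1. Of the 22 counts, 14 stayed within 1.5 times their size with the pseudocount, 21 under either scaling and 20 under either filter, and no direction of a 2-fold change turned. The family's median for both drugs against JQ1 in BT474m1, 0.42, was 0.06 under either filter. No analysis paired by line was made, and no test within a line was possible because each group holds 1 library. Depth limits members under about 20 reads, such as ABCG2 in BT474m1 and ABCB4 with JQ1.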
